A study of Mus musculus with 8 samples.

Results

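The genes described here are the glutathione, glucuronide and sulfate conjugation enzymes of the mouse kidney after ischemia-reperfusion. They were taken by symbol: glutathione S-transferases (Gst followed by a class letter and a number), microsomal glutathione S-transferases (Mgst), UDP-glycosyltransferases (Ugt) and sulfotransferases (Sult), with a total of at least 80 counts over 8 libraries. The rule gave 44 genes of the 25239 in the table, of which 23 belong to the glutathione system, 14 to the glucuronide system and 7 to the sulfate system. The systems were assigned by symbol, so the glucuronide system holds every Ugt gene, whatever sugar its product transfers. Before the minimum, 67 symbols matched, and 10 of the 23 that fell below it had a total of 0 counts. All 8 libraries are RNA-seq of left kidneys whose vessels were clamped for 35 min and then released, after removal of the right kidney, with a collagenase digestion ahead of RNA extraction. Control 1 to 4 carry the genotype label WT. Knockout 1 to 4 come from mice with Lyz2-CreERT2 and FoxO1flox/flox, in which the Lyz2 promoter, active in macrophages and other myeloid cells, drives a Cre recombinase that tamoxifen switches on. The protocol gives tamoxifen at 75 mg/kg on 5 days and an age of 8 to 10 weeks. The sources used here do not give the time from reperfusion to collection, nor whether the controls carried Cre or received tamoxifen. Separate animals are not stated for the replicates, so every p-value rests on the library-to-library spread alone, which may be technical.

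Conjugation makes reactive or fat-soluble compounds water-soluble so that they can leave the cell and the body. Glutathione S-transferases attach the tripeptide glutathione to electrophiles such as lipid peroxidation products, UDP-glucuronosyltransferases attach glucuronic acid from UDP-glucuronate, and sulfotransferases attach sulfate from the donor PAPS. In the kidney the proximal tubule carries much of this chemistry, and it also trims glutathione conjugates to mercapturates that are excreted in urine. Many of these genes are known targets of the transcription factor NRF2, which acts through the antioxidant response element, and of nuclear receptors and hepatocyte nuclear factors.

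Several of the genes are near copies of a neighbour, which bears on their counts. In the GENCODE transcripts of the assembly GRCm38.p6, 89.7% of the 50-base windows of Gsta1 also occur in another gene's transcripts, with the predicted gene Gm3776 as its main partner (82.9%), and 64.2% of the windows of Gsta2 are shared, mostly with Gsta1 (44.8%). The figure was 62.3% for Gstp1, and 62.0% or more for each of the 6 Ugt1a genes, which are alternative first exons joined to common later exons. Only 9.38% of the windows of Ugt3a1, 0.723% of those of Sult1c2 and none of those of Sult1d1, Gstk1 and Gstm7 were shared. Counts of Gsta1, Gstp1 and the Ugt1a genes are therefore uncertain, since the sources used here do not say how reads that fit several genes were counted.

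The promoters of the genes with the largest differences were read from RefSeq windows of GRCm38.p6. RefSeq gave 52 windows for 41 of the 44 genes, each from 250 bases before the transcription start to 50 after it. The 150 bases before the start are shown for Gsta1 and Gsta2, a close pair of which Gsta1 was called and Gsta2 was not, for Ugt1a2 and Ugt1a10, the first exons with the largest fold changes, and for Ugt3a1. Capitals mark a match to a searched motif, and a run without capitals has none.
Gsta1, chr9:78230519-78230668, strand +: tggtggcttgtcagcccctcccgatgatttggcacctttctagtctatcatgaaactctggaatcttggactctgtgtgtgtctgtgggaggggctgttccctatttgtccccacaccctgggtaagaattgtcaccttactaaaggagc
Gsta2, chr9:78347146-78347295, strand -: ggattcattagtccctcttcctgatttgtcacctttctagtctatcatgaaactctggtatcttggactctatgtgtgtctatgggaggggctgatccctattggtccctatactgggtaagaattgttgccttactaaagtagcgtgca
Ugt1a2, chr1:88200461-88200610, strand +: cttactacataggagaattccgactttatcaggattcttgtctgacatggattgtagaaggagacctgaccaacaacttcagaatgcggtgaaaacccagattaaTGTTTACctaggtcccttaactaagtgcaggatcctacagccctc
Ugt1a10, chr1:88055261-88055410, strand +: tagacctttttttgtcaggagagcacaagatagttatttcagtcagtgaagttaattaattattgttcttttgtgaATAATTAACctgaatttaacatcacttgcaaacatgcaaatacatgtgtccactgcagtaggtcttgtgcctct
Ugt3a1, chr15:9279679-9279828, strand +: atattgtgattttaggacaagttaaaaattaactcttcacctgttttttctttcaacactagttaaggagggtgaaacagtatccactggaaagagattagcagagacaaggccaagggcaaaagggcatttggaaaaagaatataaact
The 250 bases before the start of Gsta1 and Gsta2 were identical at 184 positions (73.6% of 250). Those of Ugt1a2 and Ugt1a10 were identical at 50.4%, and Ugt1a1 was identical to Ugt1a10 at 54.8% and to Ugt1a2 at 52.8%. Identity was 89.6% for Ugt2b37 and Ugt2b38, 82.8% for Gstp1 and Gstp2 and 75.2% for Ugt1a9 and Ugt1a10. Motif matches that both genes of such a pair hold are therefore not separate. Both strands of all 32851 windows were searched for 4 motifs. The FoxO motif GTAAACA was in 3.65% of all windows and in 4 of the 52 windows of conjugation genes, those of Sult1d1, Ugt1a2, Ugt2b37 and Ugt2b38; the capitals in Ugt1a2 are this motif on the opposite strand. The HNF1 motif GTTAATNAT was in 0.801% of all windows and in those of Ugt1a1, Ugt1a9, Ugt1a10 and Sult1d1, and the capitals in Ugt1a10 are this motif on the opposite strand. The antioxidant response element core TGACNNNGC was in 12.4% of all windows and in those of Gsta3, Gstm5, Gstm7 and Mgst1. The AP-1 motif TGACTCA was in 5.2% of all windows and in those of Gstm5, Gstp1, Gstp2, Sult1b1, Sult2b1 and Ugt2b37. TGACTCA and TGACNNNGC share their first 4 letters and could overlap, and in the windows of conjugation genes no matches of different motifs did. A match is a stretch of letters and not a shown binding site.

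Library totals ran from 29044405 to 35530421 counts, and the 44 genes took 0.315% of the counts in control 1 and 0.398% to 0.546% in the other 7 libraries. The target Foxo1 stood at 34.5, 33.4, 33 and 33.9 CPM in control 1 to 4 and 41.4, 41, 42.9 and 39.3 CPM in knockout 1 to 4. It was higher in every knockout library than in every control, with a log2 fold change of 0.29 (standard error 0.092, adjusted p = 0.0647) by edgeR's quasi-likelihood test. Whole-kidney Foxo1 therefore did not check the genotype, and knockout is used here as the label gives it. Lyz2, whose promoter drives the Cre, was at 2.28 CPM in control 1 and 0.367 CPM in knockout 3. In the other libraries Lyz2 was at 25.4 to 50.4 CPM, and the reason was not tested. Control 1 and knockout 3 are left out together in an alternative below. Markers of other cell states moved with the groups, beside 6.45% of all genes tested called higher and 6.28% called lower. The summed level of 17 proximal tubule markers was 13586 to 30508 CPM in the controls and 29093 to 39703 CPM in the knockouts, with 3 markers higher and 0 lower (1 higher without control 3, knockout 2, knockout 3 or knockout 4), and that of 8 markers of its last segment (S3) was 828 to 2012 CPM in the controls and 2368 to 2947 CPM in the knockouts, with 4 higher and 0 lower. The summed level of 15 injured tubule markers was 15915 to 30596 CPM in the controls and 6275 to 7126 CPM in the knockouts, with 12 lower, among them Havcr1 (KIM-1) at -2.45 (adjusted p = 5.80e-04). Of 7 markers of the loop of Henle 5 were higher, and of 10 of the distal nephron 9 were higher. Of 5 tested neutrophil markers 5 were lower (3 without knockout 3, 2 without knockout 4 and 1 without knockout 2). Of 9 macrophage markers 1 was lower (Cd14) and 0 higher. Their log2 fold changes were positive for 5 and negative for 4, with a median of 0.18. Their summed level was 304 to 410 CPM in the controls and 226 to 386 CPM in the knockouts. Summed levels were 2223 to 3835 CPM in the controls and 6563 to 7589 CPM in the knockouts for the loop of Henle, 620.5 to 1583 CPM in the controls and 2373 to 3179 CPM in the knockouts for the distal nephron, and 26.3 to 162 CPM in the controls and 5.53 to 15.3 CPM in the knockouts for neutrophils. Of 14 immediate early and heat shock genes, which can respond to tissue handling, 7 were lower and 0 higher, with a median log2 fold change of -0.68. Control 1 had the lowest summed level of both proximal tubule lists. In bulk tissue, fewer cells of a type and less RNA per cell cannot be told apart, and the part of these markers in the results below was not tested. The summed level of 16 liver genes was 1592 to 3009.7 CPM in the controls and 711 to 1564 CPM in the knockouts, with 3 lower (the fibrinogen chains Fga, Fgb and Fgg) and 1 higher (2 without control 1, 1 without control 4 and 0 without any other library), and Alb was at 6.66 to 19.9 CPM in the 8 libraries. The Y-linked genes Ddx3y, Eif2s3y, Kdm5d and Uty were at 4.35 CPM or more and Xist at 0.232 CPM or less in all 8. Of 8 genes known to differ by sex in the mouse kidney, 4 were higher and 2 lower in the knockouts (0 lower without knockout 4, 1 without control 4, knockout 1 or knockout 2 and 3 without knockout 3).

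Levels between genes were compared as CPM per kb of deposited gene length, averaged over the 8 libraries. Among the glutathione genes the alpha-class Gsta2 (536 CPM per kb), the mu-class Gstm1 (471), the pi-class Gstp1 (316) and Gstm5 (279) were highest. Among the Ugt genes, here the glucuronide system, Ugt3a2 (347 CPM per kb), Ugt2b38 (119), Ugt3a1 (44.3) and Ugt2b37 (32.5) were highest. The place of Ugt3a1 differed between the groups: it was at 16.8 CPM per kb in the controls, below Ugt1a7c (34.8) and Ugt2b37 (34.3), and at 71.8 in the knockouts. Sult1d1 (98.4 CPM per kb) led the sulfotransferases, ahead of Sult1c2 (30.3), Sult1a1 (5.34) and Sult2b1 (2.4). The lowest gene was Ugt1a9 at 0.103 CPM per kb. Whether neighbours in this order differ beyond the spread between libraries was not tested.

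**Figure D1:**
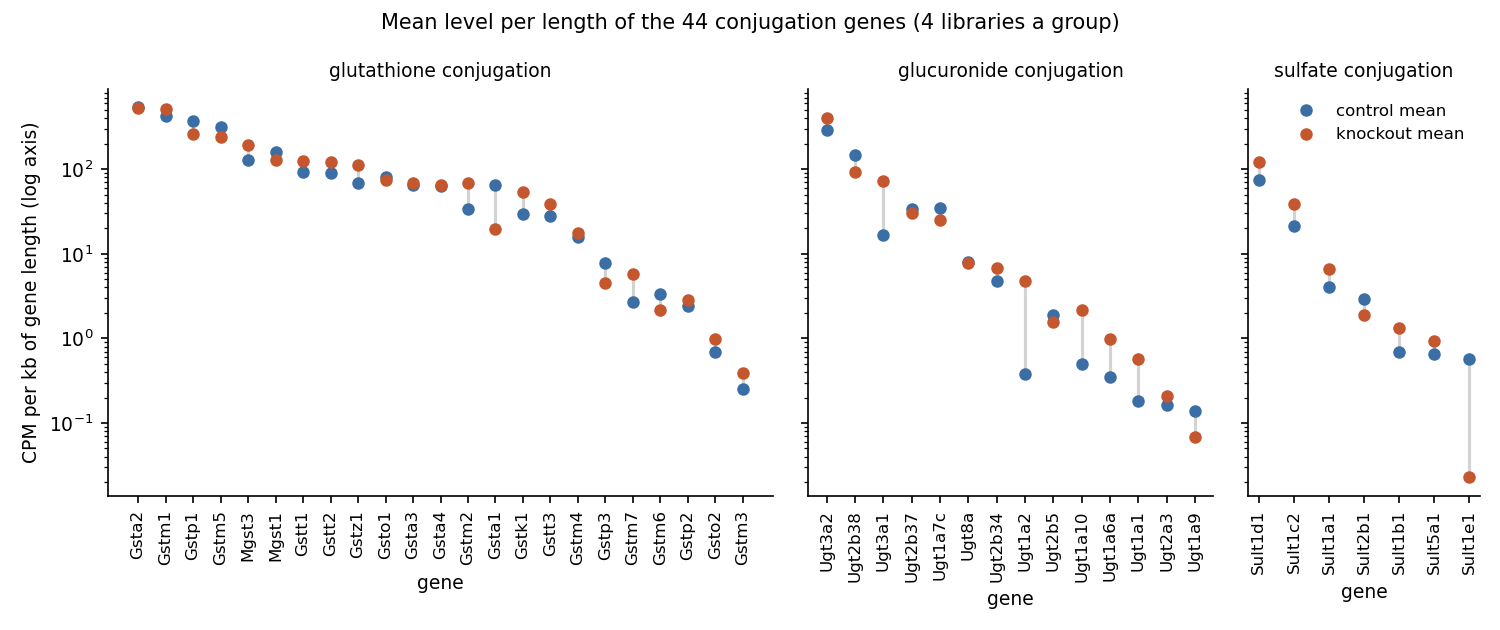
Mean CPM per kb of gene length (log axis) of the 44 conjugation genes in the control and knockout groups of 4 libraries, ordered within each system by the mean over both. Gsta2, Gstm1, Gstp1 and Gstm5 lead the glutathione system, Ugt3a2 the glucuronide system and Sult1d1 the sulfate system; wide gaps between the groups are seen for Gsta1, Ugt3a1, Ugt1a2, Ugt1a10 and the scarcely detected Sult1e1.

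The question was which conjugation genes differed between knockout and control kidneys. Ugt3a1 was 4.28-fold higher in the knockouts and Gsta1 was 3.31-fold lower. Ugt1a2 and Ugt1a10 were also higher, with low levels that varied widely between knockout libraries, and 6 further genes differed by smaller amounts. By edgeR's quasi-likelihood test, with Benjamini-Hochberg adjustment over 15000 genes, 10 of the 42 conjugation genes that passed the filter on low counts were called at an adjusted p under 0.05 (23.8%), against 12.7% of all genes tested. Of these, 8 were higher (19%, against 6.45% of all genes) and 2 were lower (4.76%, against 6.28%). The median log2 fold change of the 42 genes was 0.43, against -0.012 over all genes, with 28 positive and 14 negative. At an unadjusted p under 0.05 stood 20 of the 42, against 29.1% of all genes. For 10 of the 42 genes (23.8%) the groups did not overlap, close to the 21.7% of all genes. Sult1e1 and Ugt1a9 did not pass the filter and were not tested. Among the markers above, 3 of 17 of the proximal tubule were called higher, with summed levels that overlapped between the groups. So were 5 of 7 of the loop of Henle and 9 of 10 of the distal nephron. Called lower were 12 of 15 injured tubule markers, 5 of 5 tested neutrophil markers and 7 of 14 immediate early and heat shock genes. Whether the conjugation genes go with these markers was not tested.

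The counts of called members rested on few libraries. Leaving out 1 library at a time left 1 to 9 of the 42 to 43 tested genes called, and the share called was below that of all genes in 4 of those 8 fits. Without control 1 the share was 9.52% against 10.4% of all genes, without control 3 it was 4.76% against 6.96%, without control 4 it was 6.98% against 9.82%, and without knockout 2 it was 2.38% against 6.92%. Without knockout 3 it was 9.3% against 7.5%, and without knockout 4 it was 6.98% against 5.98%. It was farther above the background without control 2 (20.9% against 13.1%) and without knockout 1 (18.6% against 11.5%). The median log2 fold change of the members was 0.23 without control 1, 0.26 without knockout 1 and 0.18 with limma and voom weights. Genes that were not called with all 8 libraries passed in 1 fit each: Gstt3 without control 2 (adjusted p = 0.0371), Gstz1 without control 2 (adjusted p = 0.049), Sult1a1 without control 2 (adjusted p = 0.0286), Sult2b1 without knockout 1 (adjusted p = 0.0415), Ugt1a1 without knockout 1 (adjusted p = 0.0261).

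**Figure D2:**
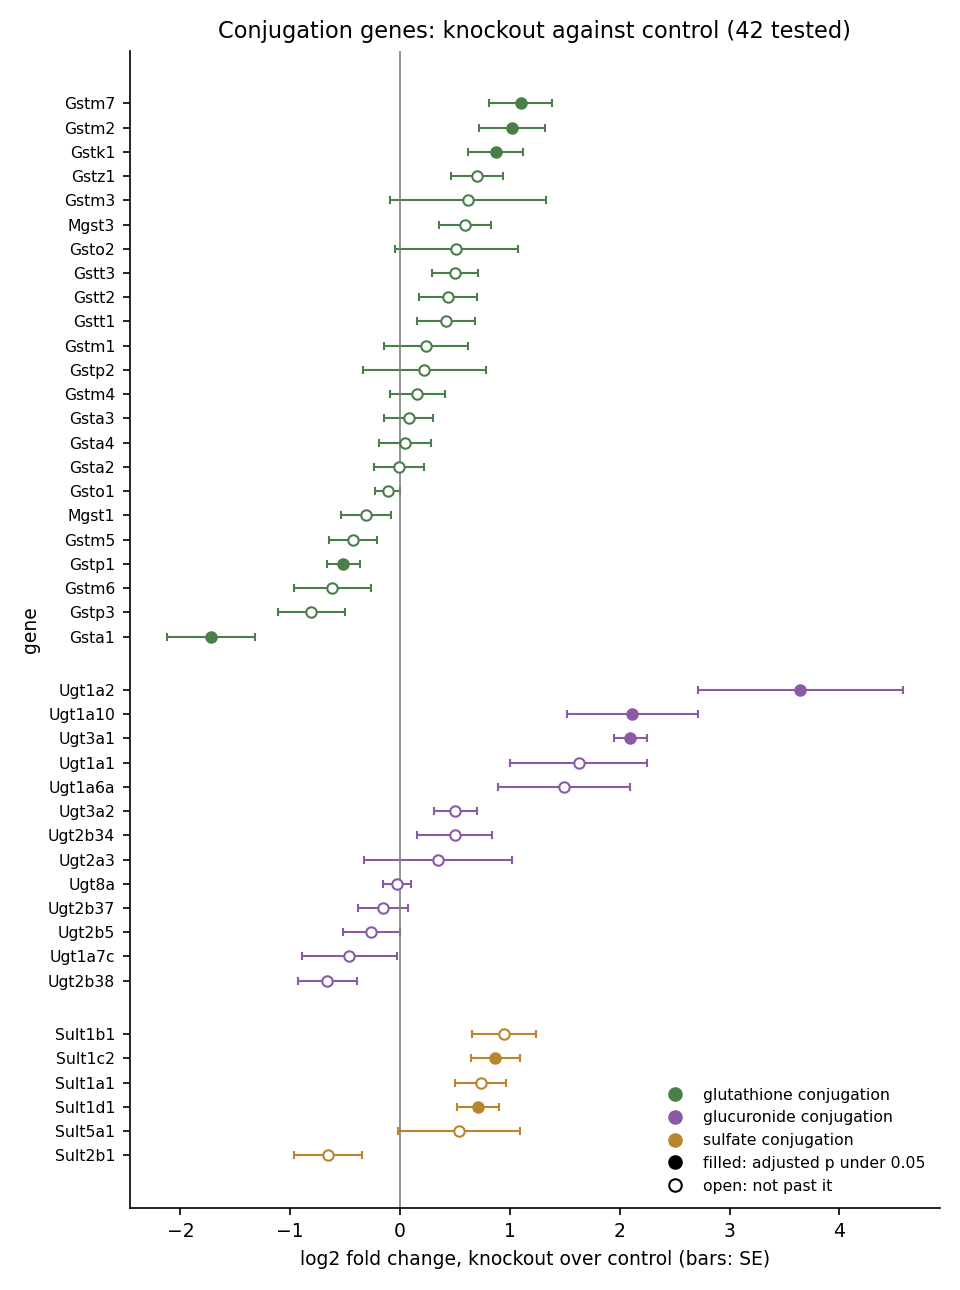
Log2 fold change of knockout over control with its standard error for the 42 tested conjugation genes, grouped by system; filled points passed an adjusted p of 0.05. Ugt1a2, Ugt1a10 and Ugt3a1 lie farthest above 0 and Gsta1 farthest below.

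Among the alpha-class transferases, which act on electrophiles of lipid peroxidation, Gsta1 fell and the other 3 tested members did not pass. Gsta1 stood at 54.4, 38.5, 66.8 and 66.6 CPM in control 1 to 4 and 8.78, 16.9, 33.7 and 9.07 CPM in knockout 1 to 4. Every knockout library was below every control, with knockout 3 the nearest, and the means were 56.6 ± 13.4 CPM in the controls and 17.1 ± 11.7 CPM in the knockouts (mean ± SD of 4 libraries), a log2 fold change of -1.72 (standard error 0.40, adjusted p = 0.0225). Gsta1 missed the threshold when control 3, knockout 2 or knockout 4 was left out (adjusted p from 0.0581 to 0.0627). The predicted genes Gm3776, its main partner in shared windows, and Gm10639, another relative, were added after their values were seen. Gm3776 had a log2 fold change of -1.75 (adjusted p = 0.0431) with overlapping groups, and with 1 library left out it passed only without control 2 or knockout 3. Gm10639 was at -0.25 (adjusted p = 0.576). Gsta2, the most abundant of the transferases, stood at 311, 437, 455 and 636 CPM in control 1 to 4 and 428, 619.7, 421 and 357 CPM in knockout 1 to 4 and did not differ beyond the spread between libraries, with a log2 fold change of -0.010 (standard error 0.23, adjusted p = 0.981). The sum of the counts of both gave a log2 fold change of -0.12 (standard error 0.22, adjusted p = 0.751). Of the counts of Gsta1 and Gsta2 together, Gsta1 took 11.3 ± 3.09% (range 8.1% to 14.9%) in the controls and 3.64 ± 2.53% (range 2.01% to 7.41%) in the knockouts. Gsta4, which favours 4-hydroxynonenal, was at 67.5, 56, 67.1 and 51 CPM in control 1 to 4 and 58.2, 83.7, 73.3 and 34.1 CPM in knockout 1 to 4, with overlapping groups and a log2 fold change of 0.045 (standard error 0.24, adjusted p = 0.923), and Gsta3 was at 0.077 (adjusted p = 0.854) on the log2 scale.

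Of the 7 mu-class transferases, which conjugate epoxides and other electrophiles, 2 rose (against 6.45% of all genes) and 0 fell by edgeR. The same count, 2 of 7, had an unadjusted p under 0.05, close to the 29.1% of all genes. Gstm2 stood at 23.3, 52, 40.2 and 26.2 CPM in control 1 to 4 and 109, 67.4, 49 and 61.6 CPM in knockout 1 to 4, so that knockout 3 lay below control 2, and its log2 fold change of 1.02 (standard error 0.30, adjusted p = 0.0494) passed narrowly. Only the fits without control 2 or knockout 3 kept Gstm2 past the threshold, and the 6 others that left out 1 library did not (adjusted p from 0.0869 to 0.104). Gstm7, scarcer by far, stood at 2.3, 4.47, 4.91 and 4.08 CPM in control 1 to 4 and 10.5, 10.6, 6.6 and 6.05 CPM in knockout 1 to 4. All 4 knockouts lay above all 4 controls, with a log2 fold change of 1.097 (standard error 0.29, adjusted p = 0.0351). Gstm7 kept its call only in the fits without control 2 or knockout 4, and missed in the 6 other fits that left out 1 library (adjusted p from 0.0501 to 0.097). Gstm1, the most abundant of the class, stood at 186, 864, 509 and 813 CPM in control 1 to 4 and 845, 613, 742 and 595 CPM in knockout 1 to 4, with control 1 far below the others. Its log2 fold change of 0.24 (standard error 0.38, adjusted p = 0.724) did not pass, and without control 1 the value was -0.061. Gstm5 stood at 187, 347, 290.5 and 339 CPM in control 1 to 4 and 198, 234, 273 and 161 CPM in knockout 1 to 4, with a log2 fold change of -0.43 (standard error 0.22, adjusted p = 0.224) and overlapping groups. The log2 fold changes of Gstm4, Gstm6 and Gstm3 were 0.16 (adjusted p = 0.715), -0.62 (adjusted p = 0.276) and 0.62 (adjusted p = 0.613). All 7 genes stand in a row on the chromosome in the order Gstm5, Gstm7, Gstm6, Gstm3, Gstm2, Gstm1 and Gstm4 in GRCm38.p6.

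Gstp1, the pi-class transferase of most tissues, stood at 213, 299.95, 258 and 338 CPM in control 1 to 4 and 212, 186, 198 and 178 CPM in knockout 1 to 4. The lowest control, control 1, was barely above the highest knockout, and the means were 277 ± 53.8 CPM in the controls and 194 ± 15.1 CPM in the knockouts (mean ± SD of 4 libraries), a log2 fold change of -0.52 (standard error 0.15, adjusted p = 0.0487). Gstp1 kept its call only in the fit without control 1, and missed in the 7 other fits that left out 1 library (adjusted p from 0.0562 to 0.131). Gstp1, Gstp2 and Gstp3 lie side by side, and Gstp1 and Gstp2 share windows with each other while Gstp3 shares none. Their sum gave -0.52 (adjusted p = 0.0494). Gstp1 made up 277 of the 285 CPM of the sum in the controls and 194 of the 199 CPM in the knockouts. The sum therefore had to lie near Gstp1 and is no separate check. Gstp2 and Gstp3 alone were at 0.22 and -0.81, neither of which passed. The kappa-class Gstk1, found in mitochondria and peroxisomes, stood at 18.5, 34.7, 24.5 and 32.5 CPM in control 1 to 4 and 60.8, 66.1, 39.3 and 35.5 CPM in knockout 1 to 4, with a log2 fold change of 0.87 (standard error 0.25, adjusted p = 0.0458) and the lowest knockout just above the highest control. Only the fits without control 2 or knockout 4 kept Gstk1 past the threshold, and the 6 others that left out 1 library did not (adjusted p from 0.0558 to 0.124). Gstz1, which also serves tyrosine breakdown, stood at 88.2, 196, 133 and 184 CPM in control 1 to 4 and 259, 301, 218 and 199 CPM in knockout 1 to 4 with no overlap between the groups, yet its log2 fold change of 0.70 (standard error 0.24, adjusted p = 0.0818) did not pass. The theta-class genes Gstt1, Gstt2 and Gstt3 had log2 fold changes from 0.42 to 0.50, and the omega-class genes Gsto1 and Gsto2 were at -0.11 and 0.51; none of these 5 passed. Among the membrane-bound transferases of the endoplasmic reticulum, Mgst1 stood at 176, 252, 221 and 248 CPM in control 1 to 4 and 164, 264, 177 and 118 CPM in knockout 1 to 4. Its groups overlapped, with a log2 fold change of -0.31 (standard error 0.22, adjusted p = 0.394). Mgst3 was at 0.59 (adjusted p = 0.125).

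**Figure D3:**
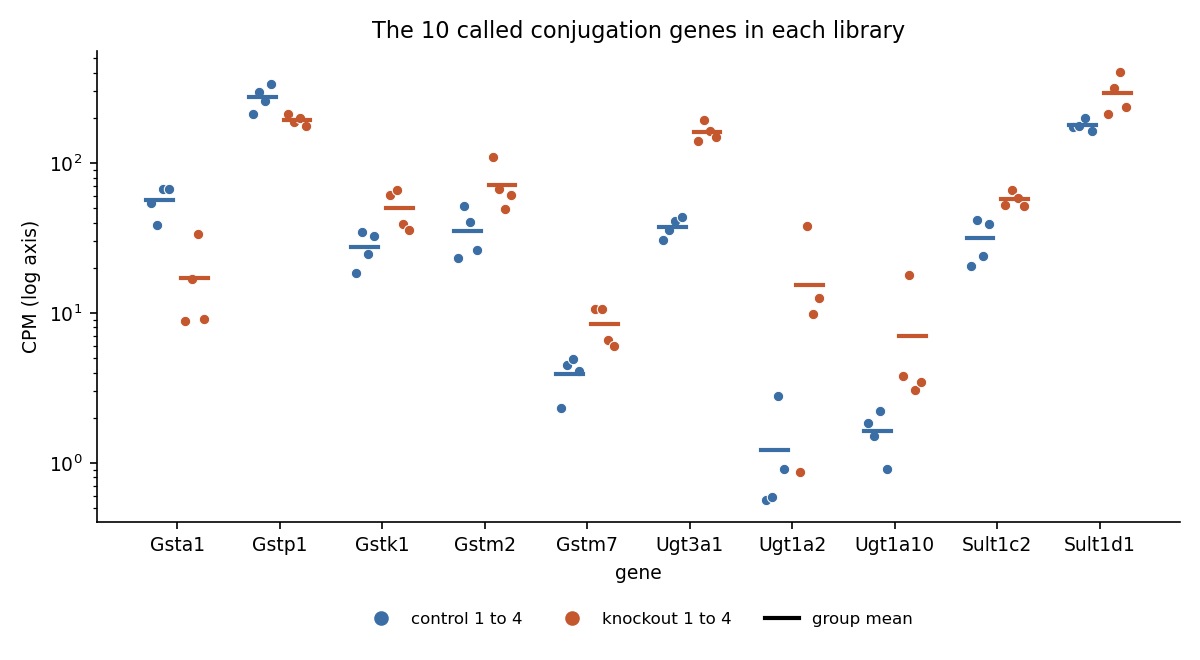
CPM (log axis) in each library for the 10 called conjugation genes, points for libraries and lines for group means. Ugt3a1 shows 4 controls from 30.5 to 43.6 CPM and 4 knockouts from 140.0 to 193 CPM, while Gstm2 and Ugt1a2 overlap between the groups.

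Of the glucuronide system, 3 of 13 tested genes rose (against 6.45% of all genes) and 0 fell by edgeR, with 7 at an unadjusted p under 0.05 in either direction (against 29.1% of all genes). DESeq2 called 3 higher and 0 lower, and limma with voom weights 1 higher and 0 lower. Over all genes, DESeq2 called 20.7% in either direction and limma with voom weights 19%, against 12.7% by edgeR. The 3 genes of DESeq2 were not those of edgeR: they held Ugt1a1 in place of Ugt1a10, which had no adjusted p there. Ugt3a1, whose human counterpart transfers N-acetylglucosamine in place of glucuronic acid, was called in every setting tried. It stood at 30.5, 35.7, 41 and 43.6 CPM in control 1 to 4 and 140.0, 193, 164 and 149 CPM in knockout 1 to 4, 37.7 ± 5.82 CPM in the controls and 161 ± 23.1 CPM in the knockouts (mean ± SD of 4 libraries), with a log2 fold change of 2.10 (standard error 0.15, adjusted p = 2.19e-04). It passed in all 8 fits that left out 1 library, with a log2 fold change from 2.01 to 2.17. Over those and the other 10 settings its log2 fold change was 2.00 to 2.17 and its adjusted p at most 0.00394. The adjacent Ugt3a2, the most abundant gene of the system, stood at 451, 740.0, 560.1 and 773 CPM in control 1 to 4 and 995, 1033, 835 and 714 CPM in knockout 1 to 4, with a log2 fold change of 0.50 (standard error 0.20, adjusted p = 0.119) and overlapping groups. Of the counts of Ugt3a1 and Ugt3a2 together, Ugt3a1 took 5.78 ± 0.999% (range 4.6% to 6.82%) in the controls and 15.4 ± 2.16% (range 12.3% to 17.3%) in the knockouts.

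The products of the Ugt1a genes conjugate bilirubin, phenols and many drugs. Their deposited counts were divided among them differently in controls and knockouts. All 50-base windows of Ugt1a6a (100%) also occur in Ugt1a7c, and 69.1% of those of Ugt1a7c occur in Ugt1a6a. How reads that fit both were counted is not given, so the division is uncertain. Of the counts of the 6 Ugt1a genes together, Ugt1a7c took 95.5 ± 2.26% (range 92.7% to 97.8%) in the controls and 77.5 ± 8.17% (range 67.4% to 84.5%) in the knockouts, and no test was made of this or the other shares. Ugt1a7c stood at 148, 54.3, 147 and 110.0 CPM in control 1 to 4 and 30.8, 132, 112 and 58.6 CPM in knockout 1 to 4, with wide overlap and a log2 fold change of -0.46 (standard error 0.43, adjusted p = 0.522). The called genes were minor ones. Ugt1a2 stood at 0.562, 0.594, 2.78 and 0.907 CPM in control 1 to 4 and 0.864, 37.7, 9.9 and 12.5 CPM in knockout 1 to 4, and knockout 1 lay within the control range, with a log2 fold change of 3.65 (standard error 0.93, adjusted p = 0.0311). Only the fits without control 3 or knockout 1 kept Ugt1a2 past the threshold, and the 6 others that left out 1 library did not (adjusted p from 0.0532 to 0.0869). Its log2 fold change was 2.68 without knockout 2 and 4.47 without control 3. Ugt1a10 stood at 1.85, 1.5, 2.22 and 0.907 CPM in control 1 to 4 and 3.81, 17.8, 3.07 and 3.44 CPM in knockout 1 to 4, with knockout 2 far above the rest and a log2 fold change of 2.11 (standard error 0.60, adjusted p = 0.0443). Ugt1a10 kept its call only in the fits without knockout 1 or knockout 3, and missed in the 6 other fits that left out 1 library (adjusted p from 0.058 to 0.0928). Without knockout 2 its log2 fold change was 1.09. Ugt1a1, the bilirubin enzyme, stood at 0.787, 0.344, 0.871 and 0.356 CPM in control 1 to 4 and 0.288, 2.55, 2.93 and 1.54 CPM in knockout 1 to 4, with a log2 fold change of 1.62 (standard error 0.63, adjusted p = 0.115). Counts for it were low in every library, and the groups overlapped. Summed over the Ugt1a genes the log2 fold change was -0.11 (standard error 0.45, adjusted p = 0.897). Ugt1a9 had 30, 2, 31 and 0 counts in control 1 to 4 and 5, 18, 2 and 4 counts in knockout 1 to 4 and was not tested, and Ugt1a6a was at 1.49 (adjusted p = 0.13) on the log2 scale.

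**Figure D4:**
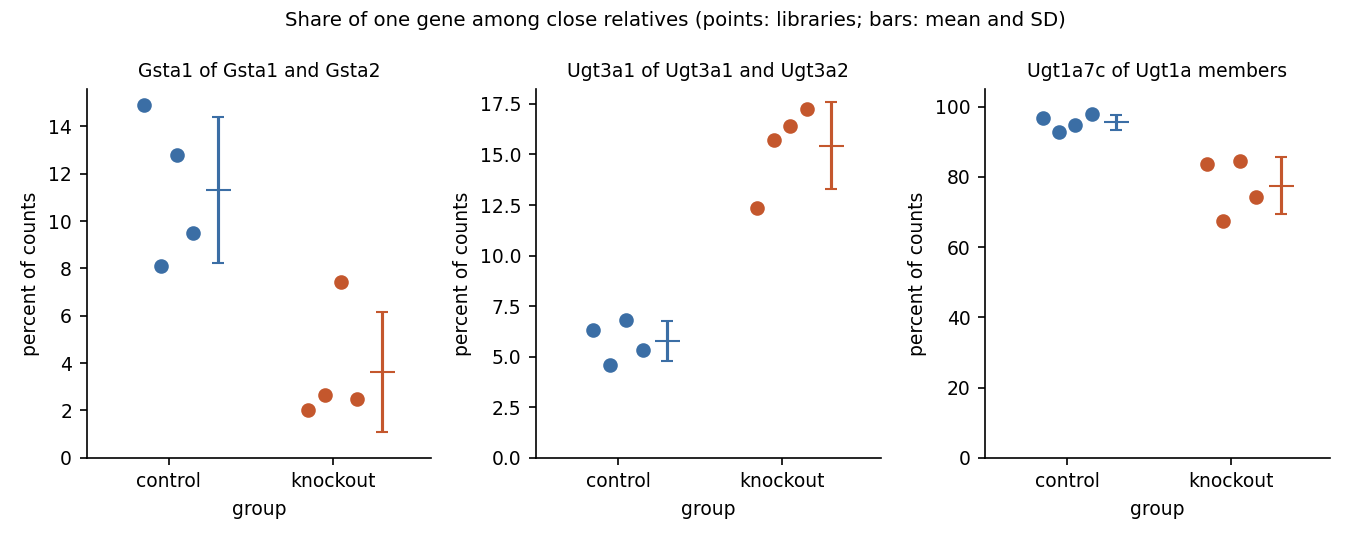
Percent of counts taken by Gsta1 among Gsta1 and Gsta2, by Ugt3a1 among Ugt3a1 and Ugt3a2, and by Ugt1a7c among the Ugt1a genes, in each library with the group mean and SD. The groups do not overlap in any of the 3 plots: the Gsta1 share is 2.01% to 7.41% in the knockouts against 8.10% to 14.9% in the controls. Gsta1 and Ugt3a1 were called genes, so their shares are no separate result, and the levels of 21.7% of all genes did not overlap. Of the shares not plotted, that of Gstm1 among the mu class overlapped (44.5% to 66.9% in the controls, 63.7% to 70.3% in the knockouts). Those of Gstm5 and Ugt1a2 in their classes did not.

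No UGT2 gene passed in either direction by edgeR's test (0 of 5, of which 1 had an unadjusted p under 0.05, against 29.1% of all genes), and they include the steroid-conjugating genes of this tissue. Ugt2b38 stood at 197, 302, 199 and 403 CPM in control 1 to 4 and 145, 148, 253 and 151 CPM in knockout 1 to 4, with knockout 3 apart from the other knockouts and a log2 fold change of -0.66 (standard error 0.27, adjusted p = 0.129). In 1 of 18 alternatives, without control 1 and knockout 3 together, it was called lower at -1.03 (adjusted p = 0.0295). Ugt2b37 stood at 50.2, 74.7, 53.9 and 78.9 CPM in control 1 to 4 and 67.9, 54, 73 and 36.2 CPM in knockout 1 to 4, with overlapping groups and a log2 fold change of -0.16 (standard error 0.23, adjusted p = 0.693). Ugt2b34 stood at 15, 10.1, 19.2 and 14.6 CPM in control 1 to 4 and 10.0, 15.2, 34.8 and 23.1 CPM in knockout 1 to 4, with a log2 fold change of 0.50 (standard error 0.34, adjusted p = 0.375). Ugt2b5 and Ugt2a3 were at -0.26 and 0.34, and Ugt8a, which makes the galactosylceramide of myelin, was at -0.031 on the log2 scale.

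Of 6 tested sulfotransferases 2 rose (against 6.45% of all genes) and 0 fell by edgeR, and 4 had an unadjusted p under 0.05 (against 29.1%). DESeq2 called 4 higher and 0 lower, and limma with voom weights 3 higher and 1 lower. In either direction these tools called 20.7% and 19% of all genes, more than the 12.7% of edgeR. Sult1d1, which sulfates catecholamines, stood at 174, 177, 199 and 164 CPM in control 1 to 4 and 214, 315, 404 and 238 CPM in knockout 1 to 4. All 4 knockouts were above all 4 controls, with a log2 fold change of 0.71 (standard error 0.19, adjusted p = 0.0364). Sult1d1 kept its call only in the fit without knockout 1, and missed in the 7 other fits that left out 1 library (adjusted p from 0.0511 to 0.0908). Sult1c2 stood at 20.7, 42, 24 and 39.3 CPM in control 1 to 4 and 52.3, 66.5, 58.4 and 52.1 CPM in knockout 1 to 4, again with no overlap and a log2 fold change of 0.87 (standard error 0.22, adjusted p = 0.0314). Sult1c2 missed the threshold when control 3, knockout 2, knockout 3 or knockout 4 was left out (adjusted p from 0.0664 to 0.0869). Sult1a1, which sulfates simple phenols, stood at 3.77, 7.04, 4.13 and 5.54 CPM in control 1 to 4 and 8.38, 7.18, 10.4 and 8.09 CPM in knockout 1 to 4 without overlap, and its log2 fold change of 0.73 (standard error 0.24, adjusted p = 0.0669) did not pass. Sult2b1, which sulfates cholesterol and related sterols, stood at 4.86, 4.19, 4.86 and 3.4 CPM in control 1 to 4 and 4.46, 2.63, 2.12 and 1.81 CPM in knockout 1 to 4, with a log2 fold change of -0.66 (standard error 0.31, adjusted p = 0.188). Sult1b1 and Sult5a1 were at 0.95 (adjusted p = 0.0581) and 0.54 (adjusted p = 0.563) on the log2 scale. Sult1e1, the estrogen sulfotransferase, had 50, 4, 47 and 0 counts in control 1 to 4 and 0, 0, 2 and 2 counts in knockout 1 to 4, so that control 1 and control 3 held nearly all of its counts.

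**Figure D5:**
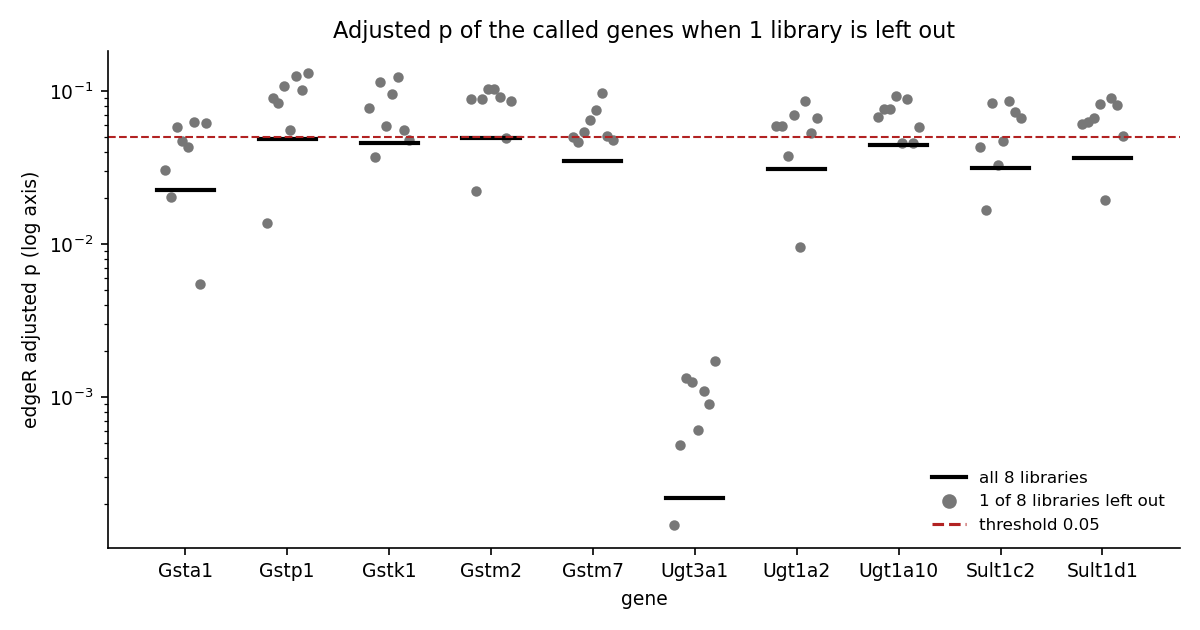
Adjusted p (log axis) of the 10 called conjugation genes with all 8 libraries (bars) and in the 8 fits that left out 1 library each (points), with the threshold of 0.05 dashed. Ugt3a1 stays below it in all 8 and Gsta1 in 5, and the others in 1 to 4.

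The genes that feed and empty these pathways were read from lists, and each list is described by its counts over the genes tested. The edgeR counts stand against 6.45% of all genes called higher and 6.28% called lower. Of 15 other NRF2 targets 0 rose and 10 fell, with a median log2 fold change of -0.71 against -0.012 over all genes. Hmox1, the heme oxygenase, stood at 446, 519, 432 and 409 CPM in control 1 to 4 and 99.8, 81, 113 and 81.4 CPM in knockout 1 to 4, and its log2 fold change was -2.27 (adjusted p = 1.77e-04). The pentose phosphate enzymes Pgd and Taldo1 were at -0.97 (adjusted p = 0.00157) and -0.94 (adjusted p = 0.00157), the carbonyl reductase Cbr3 was at -1.32 (adjusted p = 0.00712) and the quinone reductase Nqo1 did not pass at -0.043 (adjusted p = 0.893). The count of lower NRF2 targets was 6 to 11 when 1 library was left out, with 6 without knockout 4. The transcripts of NRF2 itself, Nfe2l2, were at -0.36 (adjusted p = 0.121), and of 14 tested regulators of conjugation genes 0 rose and 1 fell, Maff, at -1.65 (adjusted p = 0.00241). Of the 15 NRF2 targets none is a conjugation gene of this set, and the injured tubule markers above fell beside them.

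For the lists that follow, the shares over all genes were again 6.45% called higher and 6.28% called lower by edgeR. Of 12 tested genes of glutathione supply and turnover 1 rose and 4 fell, with a median log2 fold change of 0.087. The cystine transporter Slc7a11 was at -3.13 (adjusted p = 0.0257) and the glutathione-degrading Chac1 at -1.93 (adjusted p = 0.0242). Control 1 was the highest library for both: Slc7a11 was at 13.4 CPM there and at 1.13 to 3.12 CPM in the other controls, and Chac1 at 17.6 CPM against 4.3 to 6.09 CPM. Without control 1 the log2 fold changes were -1.89 (adjusted p = 0.0337) and -1.27 (adjusted p = 0.0255). The ligase subunits Gclm and Gclc were at -0.61 (adjusted p = 0.0319) and -0.68 (adjusted p = 0.0363), Gclc named after its values were seen. The count of lower genes was 0 without knockout 2, knockout 3 or knockout 4, and 2 without control 2, control 3 or control 4. The dipeptidase Dpep1, which cuts conjugates on the way to mercapturates, was at 1.09 (adjusted p = 0.0269) and missed without control 3, knockout 2, knockout 3 or knockout 4. The N-acetyltransferase Nat8, which finishes them, was at 1.42 (adjusted p = 0.0305). Dpep1 and Nat8 were the 2 of 6 mercapturate genes that rose, 0 fell, and the count was 0 without control 3 or knockout 2 and 1 without knockout 1, knockout 3 or knockout 4. The sulfate donor enzymes Papss1 and Papss2 were at 0.52 (adjusted p = 0.0312) and 0.53 (adjusted p = 0.0455), 2 of 8 genes of sulfate activation and removal, and this count was 1 without control 1, control 2 or knockout 4 and 0 without any other library. Of 6 genes of UDP-glucuronate supply and glucuronide removal 0 rose and 2 fell. These were Ugdh, on the supply side, at -0.44 (adjusted p = 0.0195) and Gusb, on the removal side, at -0.46 (adjusted p = 0.0301). For this count of lower genes, the fits without control 3, knockout 2 or knockout 3 gave 0, those without knockout 1 or knockout 4 gave 1. Of 13 phase I oxidation and hydrolysis genes edgeR called 1 higher, Ces1d at 0.66 (adjusted p = 0.0305), and 0 lower. An unadjusted p under 0.05 was reached by 3 of the 13, against 29.1% of all genes. DESeq2 and limma with voom weights each called 2 higher and 1 lower, and in either direction they called 20.7% and 19% of all genes. The edgeR count of higher genes was 0 without control 1, control 3, knockout 2 or knockout 4. Of 9 efflux pumps that export conjugates edgeR called 0. The canalicular and apical pump Abcc2, at -0.50 (adjusted p = 0.0543), was the 1 with an unadjusted p under 0.05, against 29.1% of all genes. DESeq2 and limma with voom weights each called 1 pump lower, as did edgeR without control 1 or knockout 2. Over all 15000 genes, DESeq2 called 1504 lower and limma with voom weights 1447. By edgeR, Abcc2 passed without control 1 (adjusted p = 0.049). It did not pass without knockout 2 (adjusted p = 0.0901), where the lower pump was another gene.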

How the data were processed

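RNA-seq was analysed from the table of gene counts that the authors deposited for 4 control and 4 knockout libraries. The deposited counts are whole numbers with no normalization. Per the submitters' processing notes, the build was mm39 and the tools were HISAT2 2.2.1, Trim Galore 0.6.2, FastQC and Salmon 1.10.2. The sources used here do not give the tool that counted, the annotation or the treatment of reads that fit several genes, and the library kit marks no strand. Among values from 1 to 20, 68.7% to 70.9% per library were even, against 49.5% to 50.4% above 100, so both mates of a pair may have been counted. Intervals from depth would cover counting error only.

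Genes were taken by symbol. edgeR 4.0.16 in R 4.3.3 was used with filterByExpr (minimum count 10), TMM factors, a quasi-likelihood fit of knockout against control without covariates, and Benjamini-Hochberg adjustment over 15000 genes. Adjusted p-values are from this test unless another is named, and genes were called under 0.05. Levels are CPM with TMM factors. Values of every library are given for called genes, for the 4 highest per system and for a fixed set of well-known members; of each pathway list, up to 4 called genes by smallest p are named. The members, the 21 gene lists and the alternatives were chosen with earlier results of these data known. Alternatives used DESeq2 1.42.0, limma 3.58.1 voom weights, other factors and filters, halved counts, summed relatives and left-out libraries. The scripts were tested on simulated data, where 90 of 100 genes changed 4-fold and 56 of 100 changed 2-fold were called. A gene that was not called may therefore still differ. Sequences and shared windows are from RefSeq and GENCODE for GRCm38.p6, read with Biopython 1.88, which is not the build of the counts, so other coordinates are not given.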

Additional observations from a re-analysis of the deposited data

Results flagged for a closer look

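In 3 of 88 groups of 4 libraries, 1 library stood apart from the other 3 in a conjugation gene by Dixon's test; chance flags about 1 in 20 groups. Ugt1a10 was at 17.8 CPM in knockout 2 and at 3.07 to 3.81 CPM in the other knockouts. Ugt1a2 was at 2.78 CPM in control 3 and at 0.562 to 0.907 CPM in the other controls. Ugt2b38 was at 253 CPM in knockout 3 and at 145 to 151 CPM in the other knockouts.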

How the results depend on the processing

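The call of Ugt3a1 held in all 18 alternatives and that of Gsta1 in 14 of 17, and the other 8 called genes lost theirs in 5 to 10 settings. With DESeq2, 1605 of all genes were higher and 1504 lower, and 4 sulfotransferases were higher. With limma and voom weights, 1447 of all genes were lower, 4 conjugation genes were lower, among them 1 sulfotransferase, and 1 glucuronide gene was higher. With RLE factors, with no filter on low counts or with close relatives summed, 1 conjugation gene was lower, a glutathione gene each time, and summing left 1 glucuronide gene higher. With control 1 and knockout 3 both left out, 549 of all genes were higher and 496 lower, and 1 conjugation gene was higher and 4 were lower (glutathione 0 higher, glucuronide 1 higher and 1 lower, sulfate 0 higher). Leaving out 1 library at a time gave 457 to 1001 of all genes higher and 450 to 983 lower, 1 to 8 conjugation genes higher and 0 to 2 lower, 0 to 5 glutathione genes higher and 0 to 2 lower, 1 to 4 glucuronide genes higher and 0 lower, and 0 to 2 sulfotransferases higher and 0 to 1 lower. The causes were not tested, except that fewer libraries or fewer separate genes were used where the setting says so.

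The replicate numbers of the labels did not pair the libraries: the correlations of same-numbered deviations were -0.198, 0.0358, 0.153 and -0.161. With the replicate number as a block, 447 of all genes were higher and 418 lower, 2 conjugation genes were higher and 1 lower, of them 0 glutathione genes higher and 1 lower, 1 glucuronide gene higher and 1 sulfotransferase higher.

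The 10 genes that follow changed sign, none of them called in either fit. With the block, log2 fold changes were 0.0085 (Gsta2), -0.021 (Gsta4) and -0.042 (Gstp2). With voom weights they were -0.041 (Gsta3), -0.026 (Gsta4), -0.069 (Gstm4), -0.33 (Gstp2), -0.060 (Sult5a1) and 0.015 (Ugt8a), and with control 1 and knockout 3 left out -0.058 (Gsta3) and -0.090 (Gstm1). Leaving out 1 library gave -0.19 to 0.19 (Gsta2), -0.12 to 0.22 (Gsta3), -0.13 to 0.25 (Gsta4), -0.061 to 0.47 (Gstm1), -0.015 to 0.35 (Gstm4), -0.32 to 0.54 (Gstp2), -0.015 to 0.85 (Sult5a1), -0.014 to 0.79 (Ugt2a3), -0.29 to 0.013 (Ugt2b37) and -0.14 to 0.033 (Ugt8a). List counts under the same settings, and values of single list genes with 1 library left out, were added after the data were seen. Depth limits the scarce Ugt1a9, Sult1e1, Ugt1a1 and Ugt2a3, and a count may stand for less than 1 fragment.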
